A study of Mus musculus with 8 samples.

Results

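The level of 10 target genes of the aryl hydrocarbon receptor and of Nrf2 was followed in the olfactory bulb of mice that inhaled diesel exhaust. The genes were Cyp1a1, Cyp1b1, Ahrr, Tiparp, Nqo1, Hmox1, Gclm, Gclc, Srxn1 and Txnrd1, and every probe was taken that carried one of these 10 gene names on the array and was not a control. This gave 13 of the 55681 noncontrol probes. The rule itself holds no measured value, but the genes were proposed with earlier results of these data known.

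Male C57BL/6J mice had been raised in a standard cage (C) or with environmental enrichment (EE), roomier housing furnished with objects and a wheel to run in, from before birth. After weaning they stayed in the same type of housing and breathed clean air (C) or diesel exhaust (DE), the latter at 90 µg/m3, for 8 hours a day on 28 days, postnatal days 28 to 55, and the olfactory bulbs were taken at an age of 56 days. The groups were C-C (standard cage, clean air), C-DE (standard cage, diesel exhaust), EE-C (enrichment, clean air) and EE-DE (enrichment, diesel exhaust). All of them were of the same strain, sex and age, and those in clean air were kept in a control chamber. By the study's methods, RNA was mixed into 1 pool for each group, with 7 mice in each standard cage pool, 8 in EE-C and 9 in the EE-DE pool, and each pool was hybridized to 2 one-colour arrays. By that account the 2 arrays of a pool would differ by technical spread only, though markers of some cells stood far apart between duplicates, as given below. The spread between mice was not measured, and no p-value could be obtained for any comparison.

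The aryl hydrocarbon receptor (AhR) is a transcription factor that is held in the cytoplasm by chaperones until it binds a ligand, and the polycyclic aromatic hydrocarbons of combustion exhaust are among its best known ligands. Together with its partner Arnt it then switches on genes of xenobiotic metabolism through the xenobiotic response element, and some of these targets, Ahrr and Tiparp among them, act back to restrain the receptor. Nrf2, the product of Nfe2l2, is degraded through Keap1 in resting cells and escapes when electrophiles or oxidants modify Keap1, after which it pairs with a small Maf protein at the antioxidant response element of genes for glutathione synthesis, thioredoxin reduction and quinone detoxification.

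Levels are given as the log2 of the background-subtracted signal minus the 75th percentile of the same array, so that a level of 0 is that percentile. A change is the difference between the mean levels of 2 pools, and the range in brackets after it is that over the 4 ways to set a single array against a single array of the second pool. The effect of exhaust was read from C-DE/C-C in standard cage mice and from EE-DE/EE-C in enriched mice, and that of rearing from EE-C/C-C in clean air and EE-DE/C-DE in exhaust. Changes of at least 1.5-fold (0.585 on the log2 scale), the threshold of the study, were counted. Levels of different probes were not compared, because probes differ in how well they bind.

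All 8 arrays lay on 1 slide. The 75th percentile of the signal ran from 644 to 716 intensity units, and 68.0% to 70.6% of noncontrol spots were well above background on 7 arrays, while the first array of EE-DE had 56.7%. All 12 marker genes of the olfactory bulb (among them Th, Tbx21 and Reln) were measured on every array, with a summed level of 240 to 250 times the 75th percentile. The supporting cells of the olfactory mucosa, which is not part of the bulb, also left a signal: 8 of their 10 markers were on the array and all 8 were measured. On the first and second array of each pool, their summed level was 12.5 and 7.19 in C-C, 3.77 and 4.73 in C-DE, 11.8 and 4.46 in EE-C and 10.3 and 16.7 in EE-DE. The EE-C duplicates thus stood far apart in these markers, as they did in those of neutrophils (3.06 on the lower array, 9.07 on the higher). Whether the arrays of a pool carried the same RNA was not tested. In these bulk pools, fewer cells of a type and less RNA per cell cannot be told apart.

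None of the target genes that could be measured on every array moved by 1.5-fold with diesel exhaust or with rearing. Of the 13 probes, 9, for 7 of the 10 genes, gave a usable signal on every array. The changes of these 9 probes over the 4 comparisons ran from −0.28 to 0.36, both extremes being those of Ahrr, the AhR repressor. The single pairings, 144 in all, ran from −0.47 to 0.50. In C-DE/C-C, 0 of 9 probes passed 1.5-fold, where 0.566% of all 19256 probes with a usable signal did. In EE-DE/EE-C it was 0 of 9 against 0.872%, in EE-C/C-C 0 of 9 against 0.737%, and in EE-DE/C-DE 0 of 9 against 0.654%. A count of 0 among 9 probes is near backgrounds this low, and is therefore no result about these genes in particular. The median change of the 9 probes was −0.02 with exhaust in standard cages and 0.01 in enriched mice, beside −0.01 for all probes in both. With rearing the median was 0.07 in EE-C/C-C and 0.09 in EE-DE/C-DE, beside 0.01 and −0.00 for all probes.

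**Figure D1:**
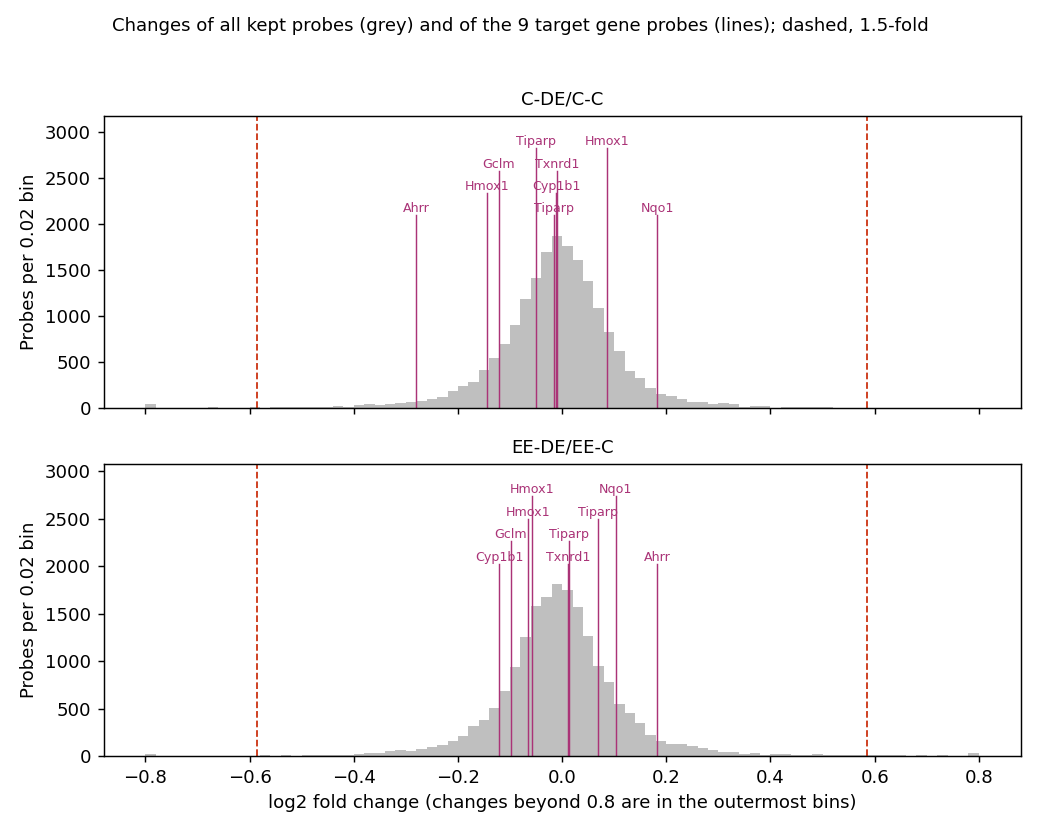
Histogram of the log2 fold change of all 19256 probes with a usable signal (grey bars, probes per bin of 0.02) for exhaust in standard cage mice (top) and in enriched mice (bottom), with the 9 target gene probes as labelled vertical lines and 1.5-fold as dashed lines. All target probes lie inside the dashed lines, from −0.28 (Ahrr) to 0.18 (Nqo1) in the upper panel and from −0.12 (Cyp1b1) to 0.18 (Ahrr) in the lower.

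Cyp1a1, which encodes the hydrocarbon-oxidizing cytochrome P450 that is the classical AhR target, was at the edge of detection. Its probe (NM_009992, chr9:57551535-57551594 of mm9, the build of the array design) read 9.63 and 3.37 intensity units on the C-C arrays, 5.59 and 10.2 in C-DE, 11.5 and 4.67 in EE-C and 6.76 and 8.04 in EE-DE. It was well above background only on the second C-DE array and the first EE-C array. The lowest intensity that any probe well above background reached was 8.45 to 10.7 on 7 arrays, and 27.4 on the EE-DE array with the higher background. Within each clean air pool the duplicates lay further apart than the pools did from each other, and the bound that this signal allows was below 1-fold in every comparison with a brighter pool, so no fold is given. No size or direction can be given for the effect of diesel exhaust on Cyp1a1 at this signal.

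The proximal promoter of Cyp1a1, the 250 bases before its start site, is shown with those of the other AhR targets in order to place the receptor's binding core. The core searched was GCGTG, on both strands, and matches are in capitals, CACGC where the match is on the opposite strand. It occurs in 28.2% of the 32851 promoters of this length in the table of RefSeq promoters (build GRCm38.p6), so a match is frequent, and it is a description and not a bound site. The Cyp1a1 window is chr9:57697363-57697612 (plus strand), the Ahrr window chr13:74292332-74292581 (minus strand), the Cyp1b1 window chr17:79715062-79715311 (minus strand) and the Tiparp window chr3:65528197-65528446 (plus strand).
Cyp1a1: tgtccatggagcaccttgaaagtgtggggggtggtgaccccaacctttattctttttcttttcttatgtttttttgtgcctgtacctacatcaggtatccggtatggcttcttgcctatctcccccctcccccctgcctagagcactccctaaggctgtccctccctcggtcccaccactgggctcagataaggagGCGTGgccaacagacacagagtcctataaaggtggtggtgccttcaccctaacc
Ahrr: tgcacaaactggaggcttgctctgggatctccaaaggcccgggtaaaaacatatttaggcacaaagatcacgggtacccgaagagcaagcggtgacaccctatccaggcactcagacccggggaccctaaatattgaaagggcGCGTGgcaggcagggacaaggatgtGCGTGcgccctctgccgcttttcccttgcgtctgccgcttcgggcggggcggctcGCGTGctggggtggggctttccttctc
Cyp1b1: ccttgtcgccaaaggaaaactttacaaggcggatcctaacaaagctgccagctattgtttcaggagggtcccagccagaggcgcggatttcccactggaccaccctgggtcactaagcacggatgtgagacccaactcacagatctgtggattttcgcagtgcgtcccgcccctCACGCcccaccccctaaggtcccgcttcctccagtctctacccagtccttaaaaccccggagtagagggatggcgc
Tiparp: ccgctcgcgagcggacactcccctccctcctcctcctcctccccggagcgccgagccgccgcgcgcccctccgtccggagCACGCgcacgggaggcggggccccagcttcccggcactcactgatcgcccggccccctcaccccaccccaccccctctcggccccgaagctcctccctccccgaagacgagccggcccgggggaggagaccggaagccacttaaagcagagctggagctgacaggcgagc
Ahrr held 3 copies of the core, at −107, −82 and −27 from the start site, and Cyp1a1, Cyp1b1 and Tiparp held 1 each, at −54, −76 and −170.

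Ahrr, which encodes a repressor that competes with AhR for Arnt, had the widest spread of pool means among the 9 probes. It was read by a probe (NM_009644, chr13:74348566-74348612 of mm9), while a second Ahrr probe (chr13:74350685-74350744) was well above background on no array. The level was −4.40 and −4.55 on the C-C arrays, −4.64 and −4.87 in C-DE, −4.72 and −4.44 in EE-C and −4.37 and −4.43 in EE-DE, which are intensities of 22.7 to 34.7. Both C-DE arrays lay below both C-C arrays and both EE-DE arrays lay above both EE-C arrays, while EE-C and C-C overlapped.

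The change of Ahrr was −0.28 (−0.47 to −0.09) with exhaust in standard cages, which is −17.7%, and 0.18 (0.01 to 0.35) in enriched mice, which is 13.4%. In EE-DE/C-DE it was 0.36 (0.21 to 0.50), and in EE-C/C-C it was −0.11 (−0.32 to 0.11). A change as large in either direction was seen for 3.99% of all probes in the standard cages and for 11.1% under enrichment. The C-DE/C-C value moved with another treatment of the background. With the normexp background model and an offset of 50, in place of the scanner's subtraction, it was −0.05, and that of EE-DE/C-DE was 0.19. This offset is above the Ahrr intensities and makes the changes of dim probes smaller, so model and offset cannot be told apart. Without the second C-DE array the C-DE/C-C value was −0.17, and the EE-DE/EE-C value was 0.04 without the first EE-C array and 0.32 without the second. The order of the 4 pool means of Ahrr, from C-DE through EE-C and C-C to EE-DE, was also that of the summed markers of mucosal supporting cells, whose list median changed by −1.21 in C-DE/C-C (9 of 9 probes lower by 1.5-fold, against 0.421% of all probes), by 1.62 in EE-DE/C-DE (9 of 9 higher, against 0.592%) and by 0.72 in EE-DE/EE-C (7 of 9 higher, against 0.582%). The last of these medians ran from −0.19 to 1.72 over the pairings, and the arrays overlapped for all 9 probes. Within the pools this order did not hold: in C-DE, EE-C and EE-DE the array with the higher marker sum had the lower Ahrr level, and only in C-C did both run the same way. The part of these cells in the Ahrr values was not tested.

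**Figure D2:**
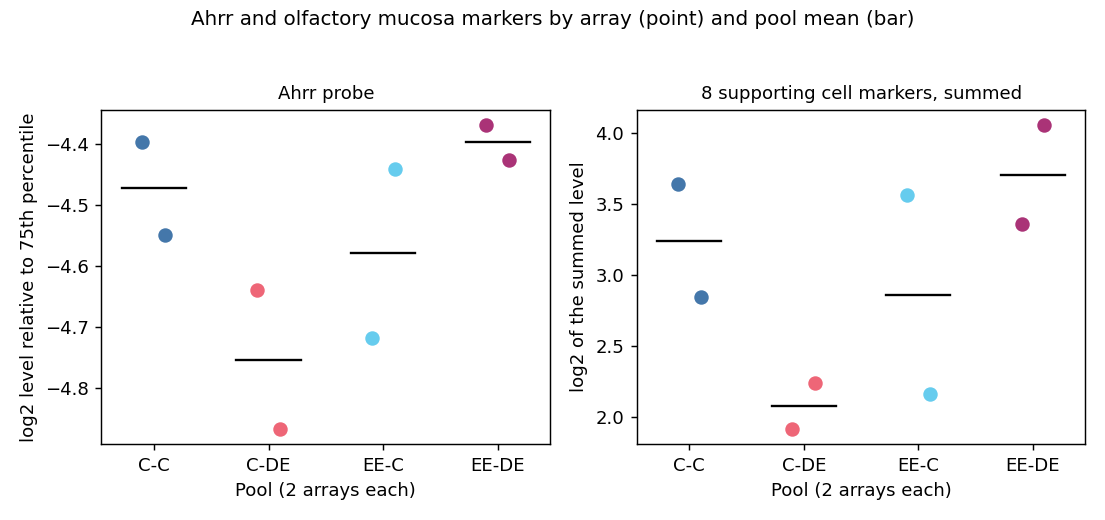
Level of the Ahrr probe (left, log2 relative to the 75th percentile of the array) and log2 of the summed level of 8 markers of olfactory mucosa supporting cells (right) on the 2 arrays (points) of each pool, with the pool mean as a bar. In both panels C-DE is lowest and EE-DE highest, with Ahrr between −4.87 and −4.37 over the 8 arrays, and the duplicates of C-DE, EE-C and EE-DE are in opposite order in the panels.

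The genes whose levels followed Ahrr most closely over the 8 arrays were Mob1b, Fat4, Bcl2a1d, Fam113a and Bend5. Each was centred on its own mean, and the mean absolute difference from Ahrr was 0.0491, 0.0495, 0.0501, 0.0512 and 0.0592 on the log2 scale, the smallest of 17175 probes ranked. Their own pool means ranged over 0.27 (Bcl2a1d) to 0.35 (Fat4), beside 0.36 for Ahrr.

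Cyp1b1, the hydrocarbon-oxidizing cytochrome P450 of tissues outside the liver, was the other cytochrome P450 of the group and was well measured (NM_009994, chr17:80106547-80106606 of mm9). Its level was 0.36 on both C-C arrays, 0.42 and 0.29 in C-DE, 0.72 and 0.37 in EE-C and 0.48 and 0.37 in EE-DE. Apart from the first EE-C array, all values fell between 0.29 and 0.48. Its change was −0.01 (−0.08 to 0.06) with exhaust in standard cages and −0.12 (−0.34 to 0.10) in enriched mice, where it was 0.05 without the first EE-C array. The change of 0.18 (0.01 to 0.35) in EE-C/C-C rested on the same array: it was 0.01 without that array and 0.35 without the second. The spots around the Cyp1b1 spot read 0.16 higher on the first EE-C array than their mean over the 8 arrays, and with each array corrected for such local shifts the change was 0.12. With normexp it was 0.0087, and that of EE-DE/EE-C was −0.02.

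Tiparp encodes a mono-ADP-ribosyltransferase induced by AhR that in turn promotes the receptor's degradation. Its downstream probe (NM_178892, chr3:65358749-65358808 of mm9) read 1.86 and 1.89 in C-C, 1.90 and 1.75 in C-DE, 1.83 and 2.09 in EE-C and 2.06 and 1.88 in EE-DE. Its upstream probe (chr3:65357710-65357769) read 1.18 and 1.17 in C-C, 1.16 and 1.15 in C-DE, 1.07 and 1.33 in EE-C and 1.31 and 1.23 in EE-DE. Both probes placed the pools in the same order, C-DE, C-C, EE-C and EE-DE from low to high. With diesel exhaust in standard cages the change was −0.05 (−0.14 to 0.04) at the downstream probe and −0.02 (−0.02 to −0.01) at the upstream probe. In enriched mice it was 0.01 (−0.21 to 0.24) and 0.07 (−0.10 to 0.24), with the exposed arrays inside the range of the EE-C duplicates. In EE-DE/C-DE it was 0.15 (−0.01 to 0.31) and 0.11 (0.06 to 0.16), and the arrays did not overlap at the upstream probe.

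C-DE thus had the lowest pool mean at all 4 AhR target probes that were usable, those of Ahrr, Cyp1b1 and Tiparp, as it had for 25.9% of all probes. EE-DE was in addition the highest for 3 of these 4, both Tiparp probes and Ahrr, as for 7.54% of all probes. All 4 changes were therefore below 0 in C-DE/C-C and above 0 in EE-DE/C-DE, 2 values that share the C-DE pool, with medians of −0.03 and 0.13. In C-DE/C-C this did not hold without the second C-DE array, where Cyp1b1 gave 0.055 and the downstream Tiparp probe 0.02, nor with the correction for local shifts, where the downstream Tiparp probe gave 0.02. The probes were few, 2 of them were of the same gene, and for Cyp1b1 and the downstream Tiparp probe the C-DE and C-C arrays overlapped. The 4 probes of further AhR targets gave 3 values below 0 in C-DE/C-C and 2 above 0 in EE-DE/C-DE, with medians of −0.07 and −0.02. Several marker lists of other cells moved the same way as the 4 probes in these comparisons. Their medians were −1.21 and 1.62 for mucosal supporting cells, −0.73 and 0.81 for neutrophils and −0.20 and 0.21 for olfactory sensory neurons. They were −0.20 and 0.21 for red blood cells, −0.11 and 0.18 for meningeal fibroblasts, −0.09 and 0.02 for pericytes and smooth muscle and −0.03 and 0.05 for microglia and macrophages. Brain endothelium (0.06 and 0.02), astrocytes (0.02 and 0.01) and the olfactory bulb list (0.04 and −0.03) did not move this way. The part of these cells was not tested.

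**Figure D3:**
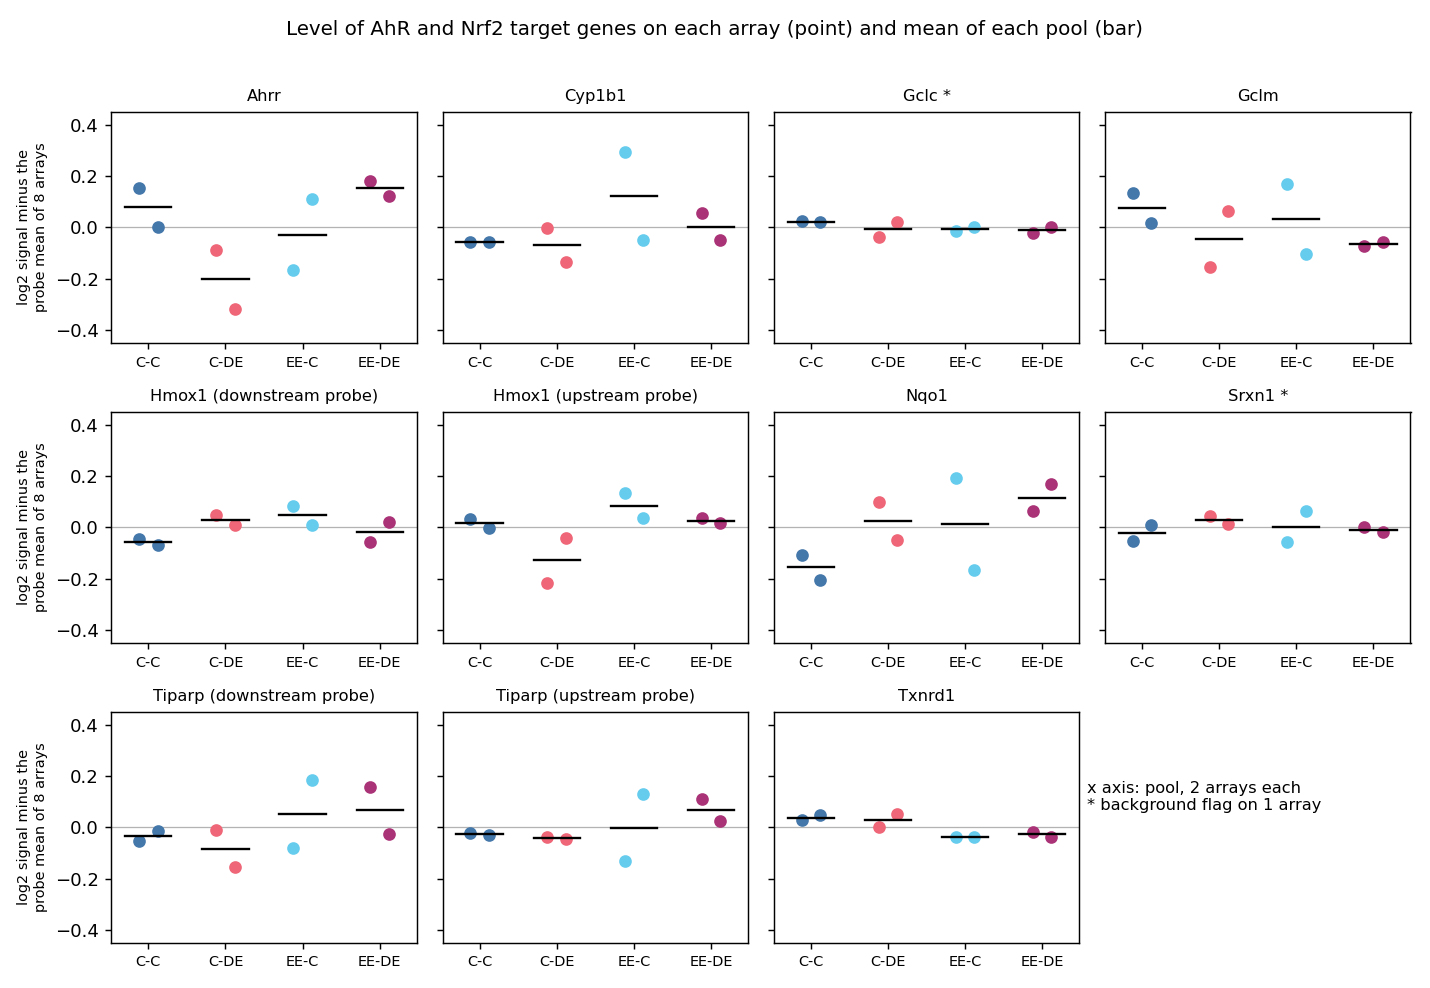
Level of each target gene probe that was well above background on all 8 arrays, as the log2 signal minus the mean of the probe over the 8 arrays, by pool on the horizontal axis, with points for the 2 arrays and a bar for the pool mean, and with an asterisk for the Gclc and Srxn1 probes, which had a background flag on 1 array. Ahrr shows the widest spread of pool means (0.36), the EE-C duplicates of Nqo1 lie 0.36 apart, and Gclc and Txnrd1 vary little.

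Nqo1, the quinone-reducing enzyme that responds to both AhR and Nrf2, was the target with the largest positive change in C-DE/C-C. Its probe (NM_008706, chr8:109912440-109912499 of mm9) read −0.95 and −1.05 in C-C, −0.74 and −0.89 in C-DE, −0.65 and −1.01 in EE-C and −0.78 and −0.67 in EE-DE. Both C-DE arrays were above both C-C arrays, whereas the EE-C duplicates spanned nearly the whole range of the other pools. The change was 0.18 (0.06 to 0.31) in C-DE/C-C, which is 13.5%, and 0.10 (−0.13 to 0.33) in enriched mice. Neither reached 1.5-fold, and without the first EE-C array the second value was 0.28, without the second it was −0.08. The spots around the Nqo1 spot read 0.12 high on the first EE-C array, and with the correction for local shifts the value was 0.18. With rearing, Nqo1 gave 0.17 (−0.06 to 0.40) in clean air, 0.0956 with that correction, and 0.09 (−0.04 to 0.22) in exhaust, and the arrays overlapped in both.

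Hmox1, heme oxygenase 1, breaks heme down to biliverdin and is a standard marker of oxidative stress. Its downstream probe (NM_010442, chr8:77624207-77624266 of mm9) read −0.51 and −0.53 in C-C, −0.42 and −0.46 in C-DE, −0.38 and −0.46 in EE-C and −0.52 and −0.45 in EE-DE. Its upstream probe (chr8:77620797-77620856) read −2.48 and −2.52 in C-C, −2.73 and −2.56 in C-DE, −2.38 and −2.48 in EE-C and −2.48 and −2.50 in EE-DE. The probes of this gene disagreed on diesel exhaust in standard cages, with both C-DE arrays above both C-C arrays at the downstream probe and below them at the upstream probe. The change there was 0.09 (0.06 to 0.12) at the downstream probe and −0.14 (−0.25 to −0.04) at the upstream probe. In EE-DE/EE-C it was −0.07 (−0.14 to 0.01) and −0.06 (−0.12 to −0.00), so that no direction can be given for Hmox1 in C-DE/C-C and both values in enriched mice were small.

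Gclm and Gclc encode the modifier and the catalytic subunit of glutamate-cysteine ligase, the enzyme that limits glutathione synthesis. Gclm (NM_008129, a probe that spans an intron within chr3:121962174-121964809 of mm9) read −0.82 and −0.93 in C-C, −1.11 and −0.88 in C-DE, −0.78 and −1.05 in EE-C and −1.02 and −1.01 in EE-DE. Its change was −0.12 (−0.29 to 0.05) with exhaust in standard cages and −0.10 (−0.24 to 0.05) in enriched mice, and the arrays overlapped in both. When each array was left out, the C-DE/C-C value ran from −0.232 to −0.0105 and the EE-DE/EE-C value from −0.235 to 0.0389. Gclc (NM_010295, chr9:77641296-77641355 of mm9) was well above background on all arrays but was kept out of the counts because its local background was flagged on the first C-DE array. Its level was 2.16 and 2.15 in C-C, 2.09 and 2.15 in C-DE, 2.12 and 2.13 in EE-C and 2.11 and 2.13 in EE-DE, so that all arrays lay between 2.09 and 2.16. The change was −0.03 (−0.06 to 0.00) under exhaust in standard cages and −0.00 (−0.02 to 0.02) in enriched mice.

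Among the Nrf2 targets with a promoter in the table, Gclm and Txnrd1 (in 1 of its 3 windows) held the core of the antioxidant response element, TGACNNNGC on either strand, which 10.2% of all promoters of this length hold. The Gclm window, chr3:122245307-122245556 of GRCm38.p6 (plus strand), is shown because it held both cores, 1 of the antioxidant response element at −134 and 3 of GCGTG at −238, −187 and −12, and no match of one overlapped a match of the other. Capitals mark the matches, and 9 bases in capitals are the antioxidant response element core as read on the opposite strand. Srxn1 held 1 GCGTG and no TGACNNNGC, and Nqo1 neither. The absence of these letters says nothing of more distant elements.
Gclm: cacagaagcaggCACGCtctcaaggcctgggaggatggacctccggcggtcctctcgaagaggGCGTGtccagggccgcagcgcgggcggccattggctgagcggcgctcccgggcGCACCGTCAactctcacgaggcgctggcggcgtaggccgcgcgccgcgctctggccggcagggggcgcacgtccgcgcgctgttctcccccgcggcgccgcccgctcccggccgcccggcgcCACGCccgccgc

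Srxn1, sulfiredoxin, which restores overoxidized peroxiredoxins, likewise had a background flag on 1 array, the second EE-DE array. Its level (NM_029688, chr2:151937009-151937068 of mm9) was 4.04 and 4.10 in C-C, 4.14 and 4.11 in C-DE, 4.04 and 4.16 in EE-C and 4.09 and 4.07 in EE-DE. The C-DE arrays were just above the C-C arrays, by 0.05 (0.01 to 0.10), and the change in EE-DE/EE-C was −0.01 (−0.08 to 0.06). With Gclc and Srxn1 included, 0 of 11 probes passed 1.5-fold in each comparison, against 0.576% to 0.944% of the 21709 probes usable with the background flags set aside.

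Txnrd1, cytosolic thioredoxin reductase, varied least of the 9 probes. Its level (NM_001042523, chr10:82360230-82360289 of mm9) was 2.58 and 2.60 in C-C, 2.55 and 2.60 in C-DE, 2.51 and 2.51 in EE-C and 2.53 and 2.51 in EE-DE. The arrays of both enriched pools were below all 4 arrays of the standard cage pools. The change with rearing was −0.08 (−0.09 to −0.06) in EE-C/C-C and −0.06 (−0.09 to −0.02) in EE-DE/C-DE, and that with diesel exhaust was −0.01 (−0.05 to 0.03) in standard cages and 0.01 (−0.00 to 0.02) under enrichment. Per the file headers, the slide positions of the standard cage arrays shared a first index of 1 and those of the enriched arrays of 2, so rearing and this position cannot be told apart. The second index was 1 or 2 for all clean air arrays and 3 or 4 for all exhaust arrays, so that exhaust and that position cannot be told apart either, for any gene. With the correction for local shifts on the slide, the EE-C/C-C value was −0.01, the EE-DE/C-DE value −0.02 and the EE-DE/EE-C value −0.04.

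**Figure D4:**
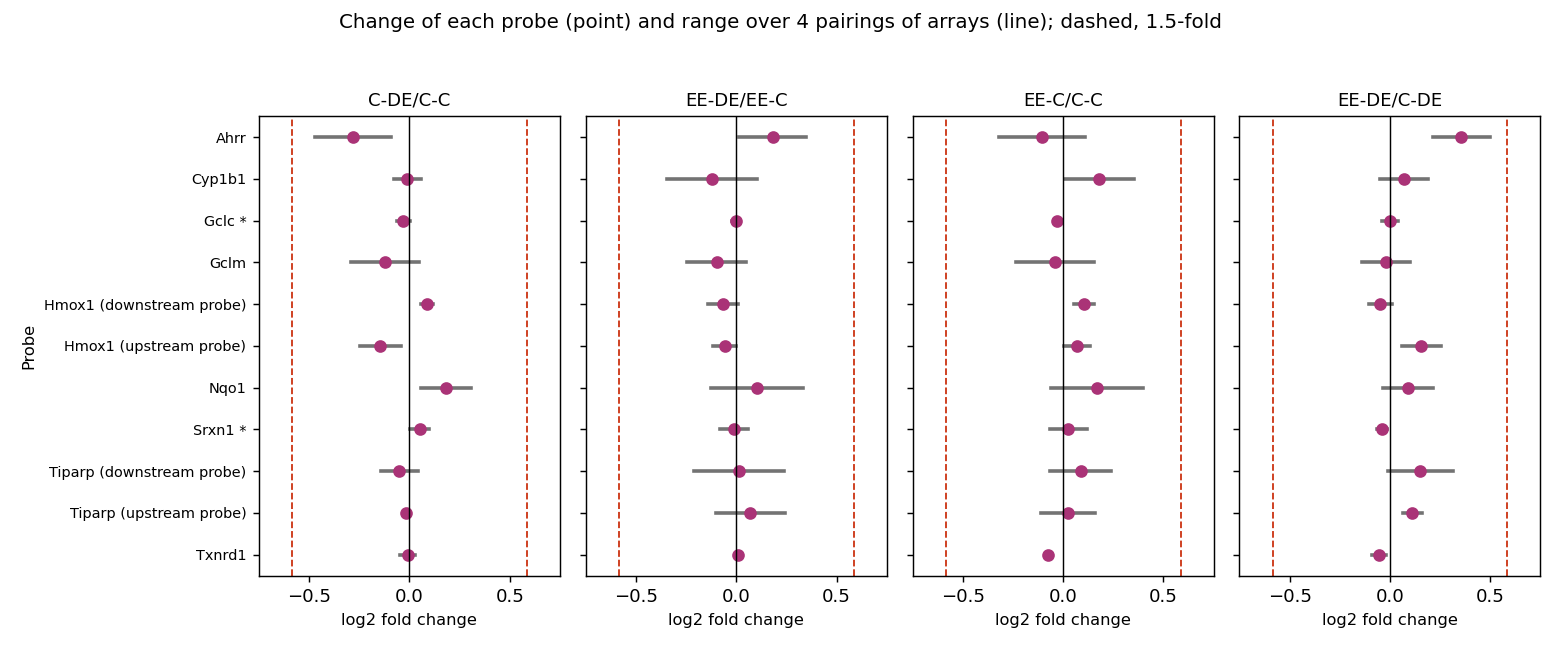
Log2 fold change (point) of 11 target gene probes with its range over the 4 pairings of arrays (line) in each of the 4 comparisons (panels), with dashed lines at 1.5-fold and asterisks at the probes with a background flag on 1 array. No point or line reaches a dashed line, and the largest changes are those of Ahrr, 0.36 in EE-DE/C-DE and −0.28 for exhaust in standard cages.

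The arrays of the pools compared separated fully for a few target genes in each comparison. In C-DE/C-C, both arrays of the exposed pool were above both arrays of the control pool for 2 of the 9 probes (Nqo1 and the downstream Hmox1 probe), against 18.6% of all probes, and below them for 3 (Ahrr, the upstream Hmox1 probe and the upstream Tiparp probe), against 22.3%. In EE-DE/EE-C they were above for 1 (Ahrr) and below for 1 (the upstream Hmox1 probe), against 14.7% and 19.5%. Rearing in clean air (EE-C/C-C) gave 3 above (Cyp1b1 and both Hmox1 probes) and 1 below (Txnrd1), against 19.8% and 17.6%. Rearing in exhaust (EE-DE/C-DE) gave 3 above (Ahrr, the upstream Hmox1 probe and the upstream Tiparp probe) and 1 below (Txnrd1), against 21.1% in either direction. Each of these counts is within 2 probes of what the background share gives for 9 probes. The comparisons share pools and are not independent of each other.

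EE-C was the pool in which the duplicates of the target genes lay furthest apart. The widest gap between duplicates was in EE-C for 6 of the 9 probes, against 37.9% of all probes, and the median gap in that pool was 0.27 for the target probes and 0.10 for all. The range of the 4 pool means exceeded the widest gap for 4 of the 9 probes (Ahrr, both Hmox1 probes and Txnrd1), against 37.0% of all probes. The median range of the pool means was 0.15 for the target probes and 0.13 for all.

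The response to diesel exhaust was the same way in all pairings of both rearing environments for 1 of the 9 probes, the upstream Hmox1 probe, against 10.1% of all probes. The pairing nearest to 0 in EE-DE/EE-C was −0.0015 there, the pool difference was −0.0004 with normexp, and the downstream Hmox1 probe went the other way in C-DE/C-C. The response was opposite in all pairings for 1, Ahrr, against 4.31%. With 1 pool for each group, no test of that reversal for Ahrr was possible.

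Ahr, Arnt, Arnt2, Ptges3 and Hsp90ab1 were all measured, these 5 genes by 8 probes, and 0 of 8 passed 1.5-fold in any of the 4 comparisons, against 0.566% to 0.872% of all probes, so that 0 is near the background here and in the lists that follow. Ahr itself gave −0.15 (−0.21 to −0.10) with exhaust in standard cages and 0.02 (0.02 to 0.03) in enriched mice. Ptges3, a co-chaperone of the receptor complex, had the largest positive change in C-DE/C-C with 0.09 (0.03 to 0.15). Arnt, the dimerization partner, had the largest change of the list in EE-DE/EE-C with −0.24 (−0.37 to −0.11) at one probe, and its other probe gave 0.04 (0.02 to 0.07). With rearing in clean air these probes gave −0.01 (−0.15 to 0.12) and −0.19 (−0.21 to −0.16). The median of the 8 probes was −0.015 in standard cages and 0.00 under enrichment.

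Of 5 further AhR targets, 3 were measured. Cyp1a2 and Ugt1a6a did not give a usable signal, Cyp1a2 being well above background on at most 3 arrays and Ugt1a6a on none. Of the 4 probes for Aldh3a1, Ugt1a6b and Cyp2s1, 0 passed 1.5-fold in any comparison, against the same 0.566% to 0.872%. Aldh3a1, an aldehyde dehydrogenase, had 2 probes that disagreed: in EE-DE/EE-C one gave −0.37 (−0.45 to −0.29) and the other 0.20 (−0.26 to 0.66), and in C-DE/C-C they gave −0.12 (−0.35 to 0.11) and 0.28 (−0.15 to 0.72). The wide ranges of the second probe came from duplicates that differed within a pool.

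The Nrf2 system itself was represented by 8 of 8 regulators with 11 probes, and 0 of 11 passed 1.5-fold in any comparison (0.566% to 0.872% of all probes). Nfe2l2, which encodes Nrf2, gave −0.06 (−0.17 to 0.04) with exhaust in standard cages and 0.09 (0.02 to 0.15) in enriched mice. In EE-DE/C-DE it gave 0.20 (0.11 to 0.29). The small Maf genes, whose products pair with Nrf2, had the largest change of the list in each comparison. Mafk was lower in the exposed than in the control pool in both environments, with changes of −0.26 (−0.41 to −0.10) in standard cages and −0.22 (−0.27 to −0.17) under enrichment, and also lower in the enriched than in the standard cage pools, with −0.22 (−0.32 to −0.13) in EE-C/C-C and −0.19 (−0.30 to −0.08) in EE-DE/C-DE. Maff went the other way with rearing, with 0.19 (−0.20 to 0.59) in EE-C/C-C and 0.26 (0.03 to 0.48) in EE-DE/C-DE, and gave 0.05 (−0.22 to 0.33) and 0.12 (−0.22 to 0.46) with exhaust in standard cages and under enrichment. Mafg gave 0.15 (0.03 to 0.27) in C-DE/C-C at 1 of its 3 probes, and the others gave −0.04 (−0.11 to 0.04) and −0.01 (−0.10 to 0.09). Keap1, the sensor that marks Nrf2 for degradation, gave 0.05 (−0.05 to 0.14) and −0.05 (−0.11 to 0.01) with exhaust in these environments.

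Of 21 further Nrf2 targets, 18 were measured by 24 probes, and 0 of 24 passed 1.5-fold in any comparison (0.566% to 0.872% of all probes), with list medians of 0.00 under exhaust in standard cages and −0.02 in enriched mice. Tkt, Sqstm1 and Blvrb had no usable probe, although a Sqstm1 probe with only an Ensembl transcript name gave 0.71 in EE-DE/EE-C. Prdx1, a peroxiredoxin, had the largest positive change with diesel exhaust in standard cages, 0.17 (0.10 to 0.23), and gave 0.10 (0.03 to 0.17) in enriched mice. Ephx1, microsomal epoxide hydrolase, gave −0.16 (−0.21 to −0.10) and −0.10 (−0.17 to −0.03) at one probe, and 0.09 (−0.01 to 0.18) and 0.03 (−0.14 to 0.20) at the other. In EE-DE/EE-C the extremes were Aox1 with −0.11 (−0.15 to −0.07) and Abcc1, an export pump for glutathione conjugates, with 0.10 (0.06 to 0.14). Osgin1, an oxidative stress response gene, had the largest change with rearing, 0.34 (0.15 to 0.54) in EE-C/C-C and 0.20 (0.13 to 0.27) in EE-DE/C-DE.

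**Figure D5:**
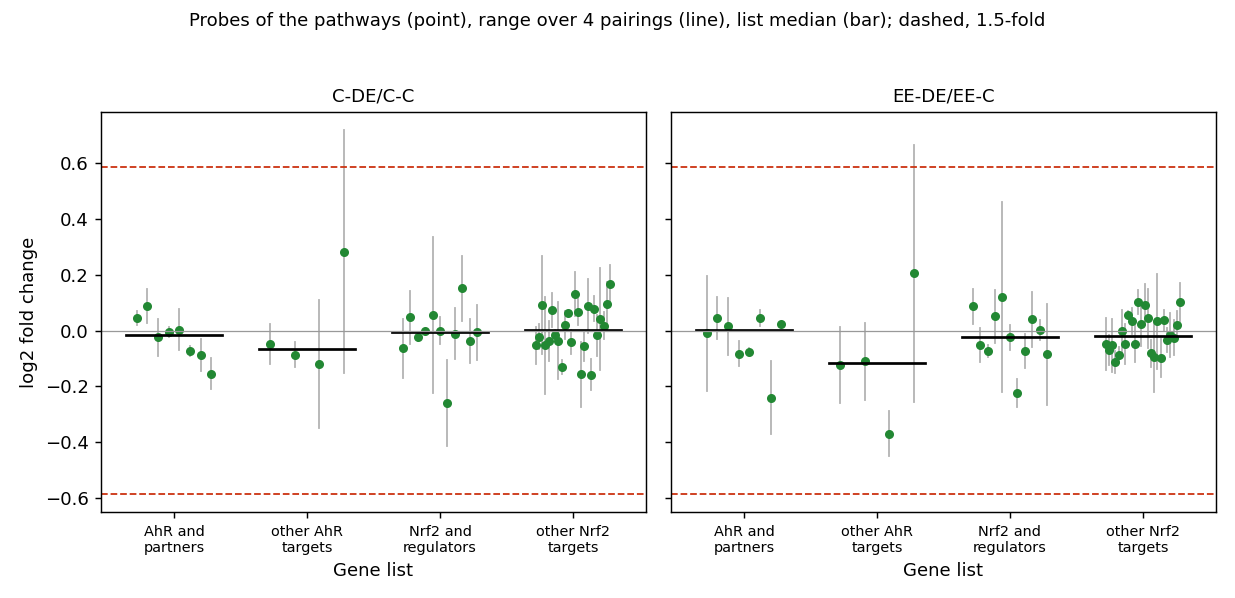
Log2 fold change (point) with its range over the 4 pairings of arrays (line) for every usable probe of 4 gene lists, AhR and its partners (8 probes), other AhR targets (4), Nrf2 and its regulators (11) and other Nrf2 targets (24), for exhaust in standard cage mice (left) and in enriched mice (right), with list medians as bars and 1.5-fold as dashed lines. All points lie inside the dashed lines, and only the ranges of 1 Aldh3a1 probe cross them.

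Markers of other cell types in and around the bulb were read beside the target genes. With exhaust in standard cages and under enrichment the list medians were 0.06 and 0.01 for brain endothelium (8 of 8 markers measured), −0.09 and −0.07 for pericytes and smooth muscle (4 of 6), −0.11 and −0.06 for meningeal fibroblasts (5 of 6), −0.03 and 0.04 for microglia and macrophages (6 of 6) and 0.02 and 0.01 for astrocytes (6 of 6). For olfactory sensory neurons (6 of 8) they were −0.20 and 0.11, for red blood cells (3 of 5) −0.20 and −0.04, and for neutrophils (6 of 6) −0.73 and −0.34. Apart from the mucosal supporting cells, the neutrophil list moved most, with 5 of 7 probes lower by 1.5-fold in C-DE/C-C, against 0.421% of all probes, and with 5 of 7 higher in EE-DE/C-DE, against 0.592%, and its summed level was 3.93 to 4.78 in C-C, 2.31 to 2.64 in C-DE, 3.06 to 9.07 in EE-C and 3.27 to 5.47 in EE-DE. The part of these cells in the values of the target genes was not tested.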

How the data were processed

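Cy3-labelled RNA of 4 olfactory bulb pools was hybridized to 8 Agilent SurePrint G3 Mouse GE 8x60K arrays, 2 for each pool. The deposited intensity values had been background-subtracted and detrended within the array by the authors' scanner software (Agilent Feature Extraction 10.7.3.1, per the submitters' processing notes) with no scaling from array to array. A series table of log2 values was also deposited by the authors. Its values match the scaling used here (75th percentile), with each probe set to its median, and their column medians ran from −0.01 to 0.02. Compared on 19256 probes, they lay within 0.02 of the same steps applied to the intensities on all arrays for 99.1%, and the largest difference for a target probe was 0.0125.

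Here the log2 intensity minus the 75th percentile of noncontrol spots was used. Probes were usable if they had a GenBank or RefSeq accession, passed the scanner's flag for signal well above background on all 8 arrays and had no feature or background outlier flag on any array. Spots of a probe were averaged, then the arrays of a pool. Because a group is 1 pool, no test was made. The number of arrays and the signal over background limit the precision. The counting of changes was run on simulated arrays with planted changes above 1.5-fold and the spread of duplicates only. That run says nothing of smaller changes, such as those of the target genes, or of the spread between mice. Python 3.11.15, numpy 2.4.6, pandas 2.3.3, scipy 1.17.1, matplotlib 3.10.9, limma 3.58.1 and R 4.3.3 were used.

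The target genes and gene lists were chosen with earlier results of these data known. All target genes were named, and from each pathway list the genes past 1.5-fold and the 2 largest changes. The receptor Ahr, Nfe2l2, Keap1, Mafg, Ugt1a6b, Cyp1a2 and Sqstm1 were named in addition, after their values were seen. A further gene of the list of the receptor and its partners is not reported here and was left out of that list's counts. Likeness was computed for the target probe with the widest range of pool means. Promoters are from RefSeq (GRCm38.p6) and covered 8 of the 10 genes in 10 windows, without Hmox1 and Gclc. Upstream and downstream name the order of 2 probes in a transcript. Probe positions are on mm9, per the file headers, and exons and UTRs were not assigned. The alternatives were normexp with an offset of 50, quantile normalization, the series table, linear averaging, other filters, a correction by the median of the spots within 10 rows and columns, calls in all pairings, and leaving out each array.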

Additional observations from a re-analysis of the deposited data

Results flagged for a closer look

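The response of Ahrr to diesel exhaust ran in opposite directions in the rearing environments in every pairing of arrays. The change was −0.28 in standard cage mice and 0.18 in enriched mice, a difference of 0.46 on the log2 scale, and 830 of 19256 probes (4.31%) showed such a reversal. The normexp background model came with an offset of 50, above the Ahrr intensities. With it the changes were −0.05 and 0.17 and the difference was 0.22. It was 0.32 without the first EE-C array, where the change in enriched mice was 0.04, and 0.60 without the second. Markers of mucosal supporting cells moved the same way, with list medians of −1.21 and 0.72, although the second ran from −0.19 to 1.72 over the pairings, and their part was not tested. The difference was not tested, since each group was 1 pool.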

How the results depend on the processing

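No paired analysis was possible because the results come from no test and the arrays of a pool share its RNA by the study's methods. No target probe that could be measured passed 1.5-fold in any comparison under any alternative that was run, and the largest change was 0.47, for Ahrr in EE-DE/C-DE without the first C-DE array. This held also with only the feature outlier flags applied, an alternative chosen after seeing the data that adds Gclc and Srxn1. All changes of filter left the values of the 9 probes as they were, and calls in all pairings are stricter than the main rule. For these 9 probes, neither kind of alternative could have given a call. The median of the target probes ranged from −0.02 to −0.01 in C-DE/C-C, from −0.076 to 0.022 in EE-DE/EE-C, from 0.02 to 0.09 in EE-C/C-C and from 0.06 to 0.12 in EE-DE/C-DE when each array was left out, and it was 0.12 in EE-DE/C-DE with normexp. It was −0.04 in C-DE/C-C with normexp, −0.03 in EE-DE/EE-C with the correction for local shifts and 0.03 in EE-C/C-C with no outlier filter, and it was also just below 0 in EE-DE/EE-C with normexp, the looser detection flag and no outlier filter. Of the 36 single values of target probes, 18 moved by over 1.5 times and 4 turned sign with normexp, 13 and 3 with the correction for local shifts; the values that turned had sizes of at most 0.05. With 1 array left out, 18 of 144 values turned sign, the largest being Nqo1 in EE-C/C-C, from 0.17 to −0.0091 without the first EE-C array.

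The count of all probes past 1.5-fold also depended on the processing. For exhaust in standard cages, exhaust under enrichment, rearing in clean air and rearing in exhaust it was 504, 722, 551 and 611 with the looser detection flag, 187, 306, 251 and 222 with any systematic name, and 21, 14, 7 and 37 when all pairings had to pass. With normexp and its offset, which makes the changes of dim probes smaller, it was 30, 99, 98 and 49. Leaving out each array gave 98 to 199, 183 to 322, 150 to 316 and 132 to 239. Of the further AhR targets, 1 Aldh3a1 probe passed for exhaust in standard cages once the first C-C array was left out, and a Cyp1a2 probe that was well above background on at most 3 arrays passed in each comparison with the looser flag. Of the further Nrf2 targets, 1 Sqstm1 probe passed for exhaust under enrichment with any systematic name (0.71). The larger counts with the looser flag and with any systematic name come with more probes, 22290 and 27252. The other causes were not tested.

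Among the target genes, signal over background limits Cyp1a1 and Ahrr most. The values describe 4 pools, and the spread between mice is not known.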
